A study of Mus musculus with 6 samples.

Results

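The naive pluripotency transcription factors are a set of 10 genes, *Klf2*, *Klf4*, *Klf5*, *Esrrb*, *Tfcp2l1*, *Tbx3*, *Zfp42*, *Prdm14*, *Nr5a2* and *Nr0b1*, that were picked by name from the 37620 genes of a table of RNA-seq counts. All 10 were found in the table by their Ensembl identifiers and all 10 passed the filter on low counts that left 16023 genes to be tested. The counts come from polyA RNA of E14 mouse embryonic stem cells (ESCs), a line of strain 129/Ola. There were 3 libraries of wild-type cells and 3 of cells with the S138A mutation, a serine-to-alanine substitution in the ubiquitin-conjugating enzyme UBE2D3. Both genotypes grew in 15% serum, and the study's methods add LIF and gelatin-coated plates for its ESCs. Those methods describe mutant ESCs made by CRISPR/Cas9 and isolated as clones, and the functional assays of the study used a single S138A clone. The labels do not say whether the S138A libraries hold that clone or whether the libraries are separate cultures. The mutation and the clone that carries it therefore cannot be told apart here, and the spread between libraries may be technical.

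In mouse ESCs the naive state is the condition closest to the preimplantation epiblast, from which cells pass through a formative state to a primed one before they form germ layers. It is held by a network of factors that is fed by LIF acting through STAT3, by Wnt signals that relieve repression by TCF7L1, and by a low level of FGF and ERK signaling. Many of these factors can stand in for one another, and several of them, such as *Zfp42*, *Tbx3*, *Nr0b1* and *Klf4*, are known to vary from cell to cell in serum cultures.

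The libraries held between 33227593 and 37169770 counts each. The S138A columns carry no replicate number in the labels, so they are named S138A A, S138A B and S138A C. The first principal component (57.2% of the variance) placed wild-type 3 and S138A C away from the other 4 libraries, and these 2 libraries are said to stand apart in what follows. The second component (25.6%) separated the genotypes. The culture was checked against the core factors *Pou5f1*, *Sox2*, *Nanog* and *Sall4*, which had a summed level of 2700 to 2890 CPM (counts scaled to library size, with edgeR's TMM factors) in wild-type and 2488 to 2912 in S138A libraries. The level of *Ube2d3* was 412.1 ± 93.6 CPM for wild-type and 395.1 ± 117 CPM for S138A (SD, n = 3 each), and the substitution cannot be read from gene counts.

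The levels of the 10 factors in wild-type ESCs spanned a 49.4-fold range once counts were divided by the length of the longest coding transcript. *Zfp42*, which encodes the zinc finger protein REX1, was the most abundant at 503.3 ± 12.4 CPM per kilobase (SD, n = 3), a level above that of 99.3% of the tested genes. *Esrrb*, an orphan nuclear receptor that can replace *Nanog* in several assays, followed at 151.6 ± 3.70 CPM per kilobase, and *Klf2* came next at 78.0 ± 1.46. *Klf4* (67.7 ± 6.95), *Nr0b1* (60.9 ± 26.7) and *Tfcp2l1* (51.8 ± 1.05 CPM per kilobase) were lower, and the ranges of *Nr0b1* overlapped those of both neighbours. *Klf5* (32.0 ± 5.67) and *Tbx3* (27.8 ± 1.37) overlapped as well, as did *Nr5a2* (14.8 ± 1.8) and *Prdm14* (10.2 ± 2.66 CPM per kilobase). The steps from *Zfp42* to *Esrrb*, from *Esrrb* to *Klf2*, from *Klf2* to *Klf4*, from *Tfcp2l1* to *Klf5* and from *Tbx3* to *Nr5a2* were steps between ranges that did not overlap. Only neighbours in this order were compared, and the range of *Nr0b1* (30.1 to 77.5) also overlapped those of *Klf2* and *Klf5*. The transcript lengths are from another annotation than the one used for counting, and the order below *Esrrb* depends on them. With the median transcript length *Zfp42* (521.8 CPM per kilobase) and *Esrrb* (289.8) still led, followed by *Klf4* (238.6), *Tfcp2l1* (98.5), *Klf2* (78.0) and *Nr0b1* (60.9). On that scale *Nr5a2* (38.8) lay above *Tbx3* (35.7) and *Klf5* (34.5), so the step from *Tbx3* to *Nr5a2* was not kept. The step from *Klf2* to *Klf4* was not kept either, since *Klf4* lay above *Klf2*.

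The naive factors were set against the other tested genes of their families, which *Nr5a2* and *Nr0b1* lacked. In each of the remaining families but that of *Prdm14*, a naive factor had the highest mean in wild-type ESCs. *Klf2* and *Klf4* lay above the other tested KLF genes, of which *Klf9* (46.9 ± 2.15 CPM per kilobase) and *Klf10* (42.3 ± 15.2) were the highest and had higher means than *Klf5*. With the median transcript length *Klf4* still led the family, but *Klf10* (96.1 CPM per kilobase), *Klf6* (91.3) and *Klf13* (85.7) lay above *Klf2* (78.0). *Esrrb* was far above *Esrra* (5.14 ± 1.24 CPM per kilobase), and *Esrrg* had between 3 and 10 counts in each library. *Tfcp2l1* was above its relatives *Ubp1* (31.3 ± 4.63) and *Tfcp2* (3.51 ± 0.711 CPM per kilobase). *Zfp42* is a relative of *Yy1*, which had 20.5 ± 2.26 CPM per kilobase, while *Yy2* had 0 counts in all 6 libraries. *Tbx3* was above the other T-box genes tested, of which *Eomes* was the highest at 1.77 ± 0.456. *Prdm14* was the exception, since *Prdm4* had 19.2 ± 1.64 CPM per kilobase. The genes *Nr5a1* and *Nr0b2*, the closest relatives of *Nr5a2* and *Nr0b1*, had at most 4 and 6 counts in any library. With genotype alone 0 of the 26 relatives passed in edgeR, and with the block *Esrra* and *Tfcp2* were higher in S138A and 0 were lower, beside 10.7% and 9.13% of all genes, on a median log2 fold change of 0.06.

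**Figure D1:**
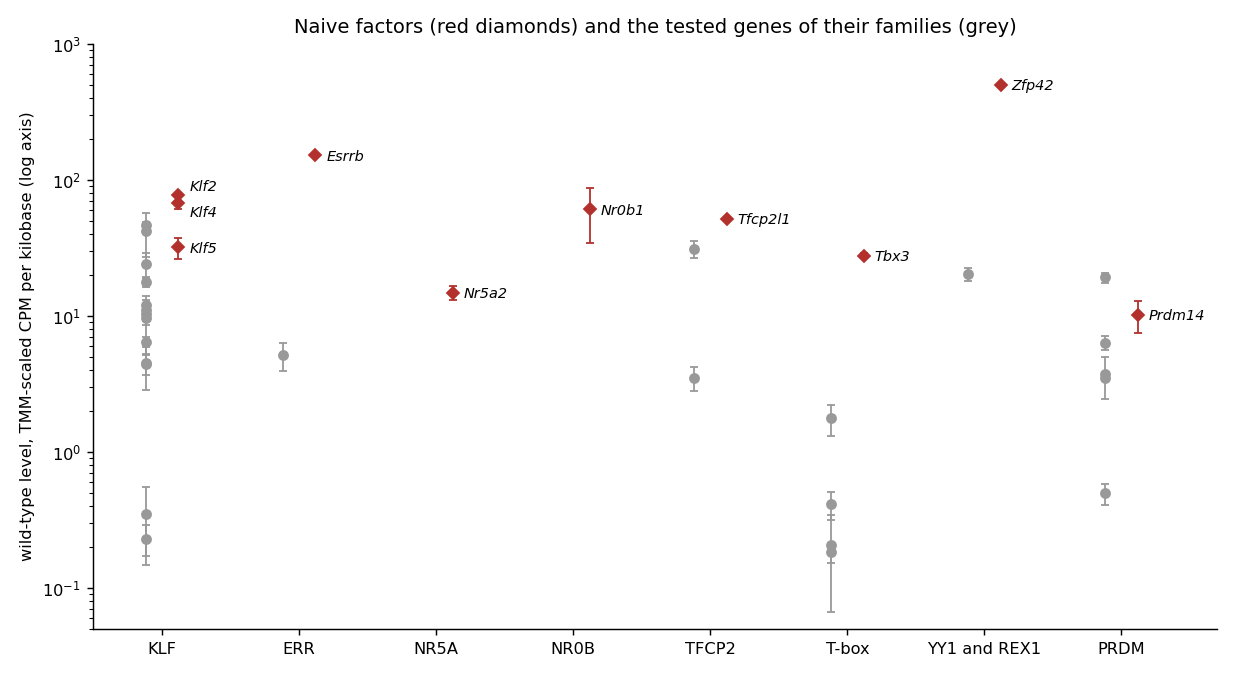
Wild-type level in TMM-scaled CPM per kilobase (log axis) of the 10 naive factors (red diamonds) and of the 26 tested genes of their families (grey circles), grouped by family, with points at the mean and bars at the SD of 3 libraries. *Zfp42* is the highest at 503.3, and *Prdm14* (10.2) and *Klf5* (32.0) are the factors with a relative of a higher mean outside the set.

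The question of the comparison was whether ESCs with the S138A enzyme keep the wild-type levels of the factors of the naive state. In edgeR's quasi-likelihood test with genotype alone, 0 of the 10 factors and 0% of the 16023 genes passed an adjusted p of 0.05. At an unadjusted p of 0.05 the same test had 2 of the 10, *Tbx3* and *Zfp42*, beside 14.2% of all genes. These were also the 2 factors whose genotypes did not overlap, *Tbx3* with every S138A library higher (11.3% of all genes) and *Zfp42* with every S138A library lower (10.9%). The log2 fold change was above 0 for 5 factors and below 0 for 5, with a median of 0.04 beside 0.02 over all genes tested. Their median size was 0.21, against 0.22 over all genes. DESeq2 called *Tbx3* alone of the 10, beside 4.96% of all genes (2.62% higher and 2.33% lower in S138A), and limma-voom called 0 of the 10 factors and 0 genes in all.

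A second edgeR fit took the last digit of each column name as a replicate number and used it as a block. It called 3 of the factors higher in S138A (*Tbx3*, *Klf4* and *Klf5*, beside 10.7% of all genes) and 2 lower (*Zfp42* and *Nr5a2*, beside 9.13%), where 19.8% of all genes were called in all. The digits of the S138A columns are not tied to the labels' replicate numbers, so this pairing rests on column names. Correlations between libraries set wild-type 3 beside S138A C but do not decide how the other libraries pair. *Klf2*, *Esrrb*, *Tfcp2l1*, *Prdm14* and *Nr0b1* did not pass in either fit. A term for the libraries that stand apart, in place of the block, called the same 3 and 2 factors, beside 14.6% and 13% of all genes. The term was chosen from these same counts and, like the block, sets wild-type 3 and S138A C apart. Its calls are therefore not independent of those of the block. The 4 other libraries alone called *Tbx3*, *Klf4* and *Klf5* higher (15.3% of all genes) and *Nr5a2* lower (14.3%), where 29.6% of all genes were called. This choice of libraries was also made from the same counts and leaves out those that differ most within their genotype. Its calls are therefore not independent of those of the block either. With no filter on low counts 0 of the 10 were called, beside 0.013% of all genes (0.00864% higher and 0.00432% lower).

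**Figure D2:**
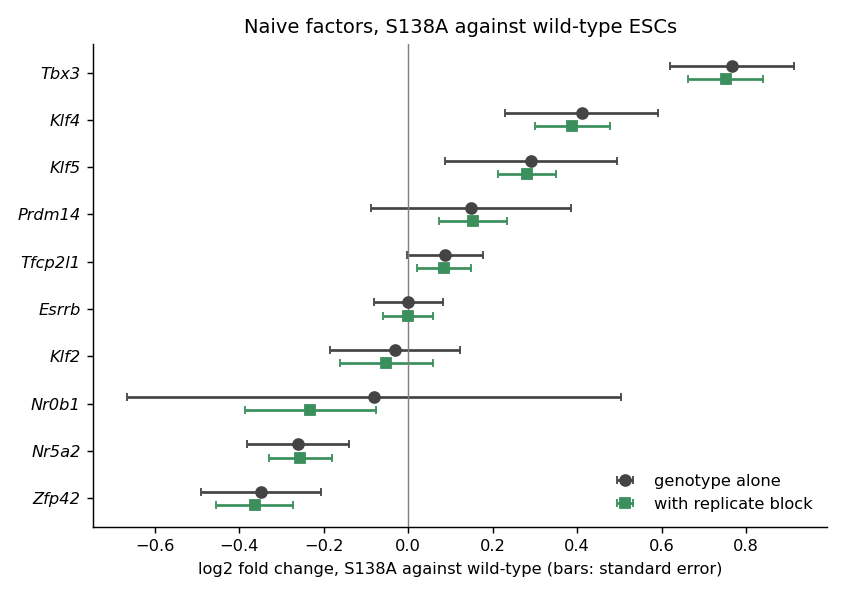
Log2 fold change of each factor in S138A against wild-type ESCs, from edgeR with genotype alone (grey circles) and with the block (green squares), with bars of 1 standard error. *Tbx3* has the largest value (0.77 and 0.75), *Zfp42* the lowest (-0.35 and -0.36), and *Nr0b1* the widest bar without the block.

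*Tbx3* encodes a T-box factor known to act downstream of PI3K and LIF signals (ENSMUSG00000018604, + strand of chromosome 5, 119670669 to 119684724, GRCm38). It had 145.7, 138.3 and 132.1 CPM in wild-type 1 to 3, and 266.1, 254.4 and 187.4 in S138A A to C. Each S138A library was above each wild-type library, and S138A C was the lowest of its genotype. The means were 138.7 ± 6.80 and 236.0 ± 42.4 CPM (SD, n = 3), a 1.70-fold difference with a log2 fold change of 0.77 (standard error, SE, 0.15, edgeR adjusted p = 0.187). The adjusted p was 0.00592 with the block and 0.00111 with DESeq2. S138A A and B were 1.83-fold above wild-type 1 and 2, and S138A C was 1.42-fold above wild-type 3. Without S138A C the log2 fold change was 0.91 and passed (edgeR adjusted p = 0.0305), in a fit that called 0.361% of all genes higher and 0.484% in all. An antisense gene, *Tbx3os1*, overlaps an exon of *Tbx3* by up to 115 bases and had between 2 and 10 counts in each library, against at least 4372 for *Tbx3*.

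Markers of other cells and states were read beside *Tbx3*. Of 10 fibroblast and feeder cell genes, 9 were tested, and their summed level was 751.1 to 845.0 CPM in wild-type against 888.8 to 1021 in S138A libraries. The median log2 fold change was 0.37. With the block, 4 were higher and 0 lower (10.7% and 9.13% of all genes), among them *Thy1* (11.1, 11.3 and 11 CPM in wild-type against 25.3, 26.1 and 16.5 in S138A libraries) and *Col1a1* (21.1, 20.5 and 36.2 against 68.8, 75 and 37.9). *Col1a2*, which encodes the partner chain of *Col1a1*, did not pass and had 8.63, 7.72 and 16.2 against 7.16, 7.80 and 12.3 CPM, a log2 fold change of -0.26. *Col3a1* had 0.454, 0.633 and 0.524 CPM in wild-type against 1.74, 2.31 and 0.917 in S138A libraries. *Col5a1* had 15.2, 14.6 and 15.8 against 24.4, 24.4 and 18.9 CPM. Both were higher with the block (edgeR adjusted p = 0.0161 and 0.0203), and each S138A library lay above each wild-type library. Of the remaining genes, *Postn* had at most 0.734 CPM in any library and *S100a4* 3 to 16 counts. Most of the sum came from *Fn1* and *Vim*, which did not pass with the block. Genes of the 2-cell-like state, such as those of the Zscan4 cluster, belong to multigene families whose reads may be split between copies. They had a summed level of 43.9 to 83.0 CPM in wild-type against 61.0 to 238.2 in S138A libraries over the 8 genes tested, of which 8 were higher with the block and 0 lower (10.7% and 9.13% of all genes), on a median log2 fold change of 1.49. The sum in S138A C was 61.0 CPM, within the wild-type range. With genotype alone 0 genes of either list passed in edgeR. DESeq2 called 4 fibroblast and 3 of the 2-cell-like genes higher, beside 2.62% of all genes, and 0 of either list lower (2.33%). The part of such cells in the value of *Tbx3* was not tested. In bulk RNA, a change in the number of cells that express a gene and a change in the amount of RNA per cell cannot be told apart.

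*Zfp42*, the classical reporter gene of the naive state (ENSMUSG00000051176, - strand of chromosome 8, 43295063 to 43306980, GRCm38), had 942.7, 932.1 and 899.0 CPM in wild-type 1 to 3, and 875.1, 692.5 and 611.8 in S138A A to C. The wild-type libraries were close together, and the S138A libraries were all lower but spread over a wider range, with S138A A only just below wild-type 3. The means were 924.6 ± 22.8 and 726.5 ± 135 CPM (SD, n = 3), with a log2 fold change of -0.35 (SE 0.14, edgeR adjusted p = 0.337). The adjusted p was 0.0321 with the block and 0.24 with DESeq2. With wild-type 3 and S138A C left out it was 0.078, on a log2 fold change of -0.26. S138A C was 0.681 times the level of wild-type 3, and S138A A and B were 0.830 times that of wild-type 1 and 2.

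The sequence upstream of the *Zfp42* start is shown because it holds an exact octamer, the element that OCT4 and related POU factors read, which 1.62% of 32536 promoter windows of the same length hold. Sequences of 250 bases before the start were taken from RefSeq (GRCm38.p6) for *Zfp42* and for *Klf4* and *Nr0b1*, described below. RefSeq windows were used for 7 of the 10 factors, with 9 starts in all, and not for *Klf5*, *Tbx3* and *Prdm14*. Capitals mark every match, on both strands, to the octamer ATTTGCAT, the CACCC element CCACACCC, the GC box CCGCCC, the nuclear receptor half-site AGGTCA, its extended form CAAGGTCA, the TCF element CTTTGA and the STAT element TTCCNGGAA. The half-site is part of the extended form, and in *Zfp42* a GC box overlaps the CACCC element. The *Zfp42* window is chr8:43307010-43307259 on the - strand, the *Klf4* window is chr4:55532476-55532725 on the - strand and the *Nr0b1* window is chrX:86191525-86191774 on the + strand.
Zfp42: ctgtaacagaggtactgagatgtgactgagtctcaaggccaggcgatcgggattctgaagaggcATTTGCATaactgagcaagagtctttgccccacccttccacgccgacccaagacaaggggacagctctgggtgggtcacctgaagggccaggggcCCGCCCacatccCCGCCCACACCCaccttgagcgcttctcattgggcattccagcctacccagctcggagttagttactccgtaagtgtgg
Klf4: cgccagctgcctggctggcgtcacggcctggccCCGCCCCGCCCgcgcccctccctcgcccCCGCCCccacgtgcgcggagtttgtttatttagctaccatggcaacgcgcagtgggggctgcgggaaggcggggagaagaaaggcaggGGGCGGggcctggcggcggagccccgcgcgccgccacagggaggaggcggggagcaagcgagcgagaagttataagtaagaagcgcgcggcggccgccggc
Nr0b1: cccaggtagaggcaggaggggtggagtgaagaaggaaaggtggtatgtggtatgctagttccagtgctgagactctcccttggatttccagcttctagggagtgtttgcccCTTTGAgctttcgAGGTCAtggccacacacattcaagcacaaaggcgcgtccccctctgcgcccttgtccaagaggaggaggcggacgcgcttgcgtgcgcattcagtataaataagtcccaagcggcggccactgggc

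The octamer of *Zfp42* lies 186 to 179 bases before the start, and the CACCC element, found in 3.20% of all windows, lies 75 to 68 bases before it. The *Klf4* window holds 4 GC boxes and no other motif of the list, and 33% of all windows hold a GC box. The *Nr0b1* window holds a TCF element 139 to 134 bases and a nuclear receptor half-site 126 to 121 bases before the start, motifs that 13.9% and 14% of all windows hold. The extended site and the STAT element (1.33% and 0.919% of all windows) were not matched in any of the 9 windows. A match gives the position of these letters only.

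Of the 3 Krüppel-like factors, *Klf4* and *Klf5* were higher in S138A ESCs in the blocked fit and *Klf2* was not. The proteins share a zinc finger domain that binds GC-rich and CACCC elements, and loss of all 3 together is known to impair self-renewal more than loss of any one. *Klf4*, a direct target of LIF and STAT3 (ENSMUSG00000003032, - strand of chromosome 4, 55527143 to 55532466), had 193.2, 192.5 and 229.3 CPM in wild-type 1 to 3 and 257.5, 215.8 and 344.1 in S138A A to C. The genotypes overlapped, with S138A B below wild-type 3, and the highest library of each genotype was wild-type 3 and S138A C. The log2 fold change was 0.41 (SE 0.18, edgeR adjusted p = 0.371) and the adjusted p was 0.0251 with the block. S138A C was 1.5-fold above wild-type 3, and S138A A and B were 1.22-fold above wild-type 1 and 2. Without S138A C the log2 fold change was 0.20.

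*Klf5*, which is also known for its role in the trophectoderm (ENSMUSG00000005148, + strand of chromosome 14, 99298691 to 99315036), had 119.4, 116.7 and 85.2 CPM in wild-type against 145.3, 149.8 and 98.0 in S138A libraries. In both genotypes the lowest library was the one that stood apart, opposite to *Klf4*. The log2 fold change was 0.29 (SE 0.20, edgeR adjusted p = 0.567), and the adjusted p was 0.0291 with the block. *Klf2*, a factor that is stabilized as a protein when ERK signaling is blocked (ENSMUSG00000055148, + strand of chromosome 8, 72319033 to 72321656), had 147.2, 142.4 and 142.7 CPM in wild-type against 152.7, 161.3 and 108.9 in S138A libraries. S138A A and B were above all wild-type libraries and S138A C was below them. Its log2 fold change was -0.03 (SE 0.15, edgeR adjusted p = 0.95) and turned to 0.12 without S138A C.

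**Figure D3:**
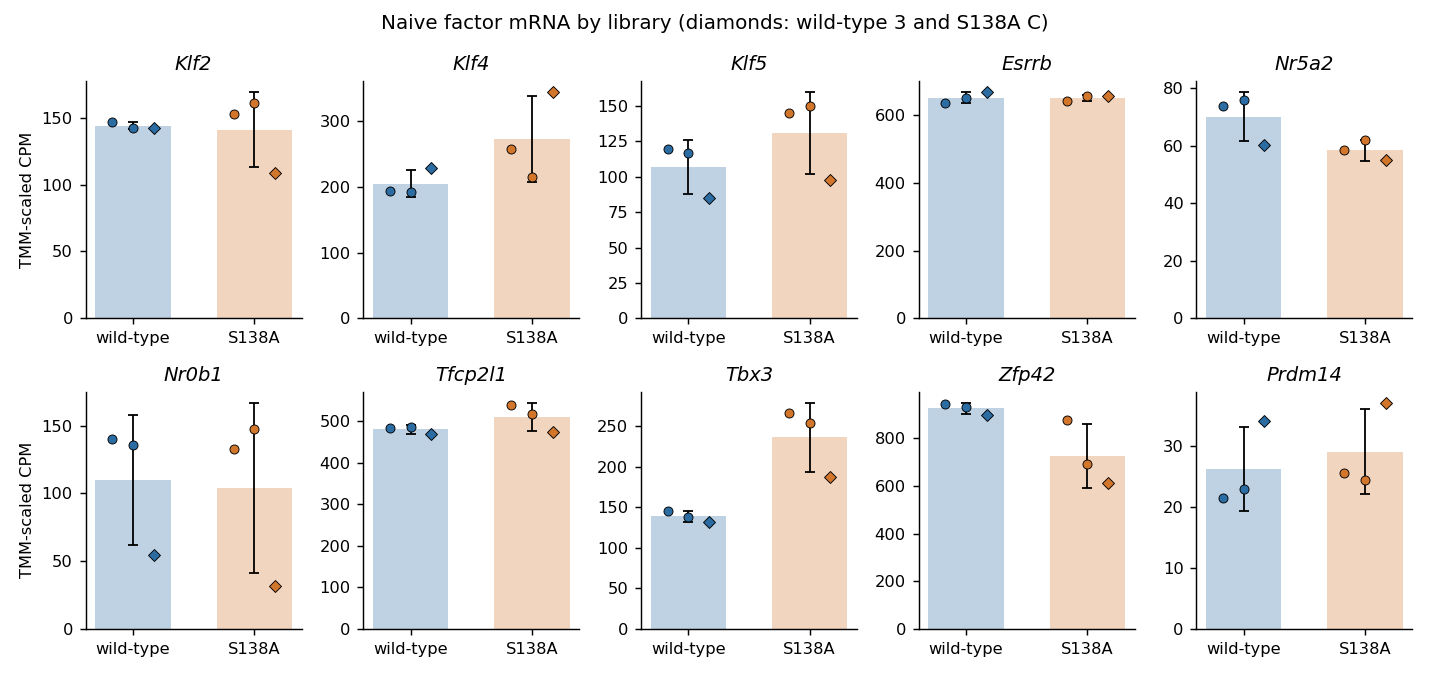
TMM-scaled CPM of each factor, on its own axis from 0, in wild-type (blue) and S138A (orange) ESCs, with bars at the mean, error bars at the SD of 3 libraries and points for single libraries (diamonds for wild-type 3 and S138A C). *Tbx3* and *Zfp42* are the factors whose genotypes do not overlap, and *Nr0b1* falls to 54.5 and 31.9 in the diamonds.

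Of the orphan nuclear receptors, *Nr5a2* was lower in the blocked fit, and *Esrrb* and *Nr0b1* did not pass. *Esrrb*, a known target of the Wnt and TCF7L1 axis (ENSMUSG00000021255, + strand of chromosome 12, 86361117 to 86521628), had 636.5, 651.0 and 668.3 CPM in wild-type against 642.0, 656.3 and 656.7 in S138A libraries. The 6 values lay within a narrow band, with means of 651.9 ± 15.9 and 651.7 ± 8.37 CPM (SD, n = 3). Its log2 fold change was 0.00 (SE 0.082, edgeR adjusted p = 0.998). The SD of *Esrrb* within a genotype was 0.028 on the log2 scale, lower than in all but 0.237% of the tested genes and all but 0.532% of the 6203 genes with at least the mean CPM of *Prdm14*.

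*Nr5a2*, which encodes LRH-1, an activator of *Pou5f1* (ENSMUSG00000026398, - strand of chromosome 1, 136842571 to 136960448), had 74.0, 76.0 and 60.4 CPM in wild-type against 58.5, 62.2 and 55.0 in S138A libraries. The genotypes overlapped only through wild-type 3, which lay between S138A A and S138A B. The log2 fold change was -0.26 (SE 0.12, edgeR adjusted p = 0.392), and the adjusted p was 0.0488 with the block. S138A A and B were 0.804 times the level of wild-type 1 and 2, and S138A C was 0.910 times that of wild-type 3.

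*Nr0b1* encodes DAX1, a receptor without a DNA-binding domain of the usual kind that interacts with OCT4 and with LRH-1 (ENSMUSG00000025056, + strand of chromosome X, 86191764 to 86195947). It had 140.2, 135.4 and 54.5 CPM in wild-type against 132.7, 147.2 and 31.9 in S138A libraries. Wild-type 3 and S138A C were far below the other 4 libraries, at 0.395 and 0.228 times the other libraries of their genotype. These values rest on 2077 and 1183 counts, so counting error is small beside the difference. The log2 fold change between genotypes was -0.08 (SE 0.58, edgeR adjusted p = 0.968), and -0.23 with the block (adjusted p = 0.314). It turned to 0.02 without wild-type 3 and S138A C. *Nr0b1* had a within-genotype SD of 1.03 on the log2 scale, above that of 97.3% of tested genes, so its genotype difference was the least well measured of the 10.

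*Tfcp2l1*, a CP2 family factor that links LIF and STAT3 signals to self-renewal (ENSMUSG00000026380, + strand of chromosome 1, 118627945 to 118685168), had 484.5, 486.4 and 468.7 CPM in wild-type against 538.8, 517.6 and 472.6 in S138A libraries. S138A A and B lay above all wild-type libraries and S138A C did not. Its log2 fold change was 0.09 (SE 0.091, edgeR adjusted p = 0.714, and 0.371 with the block). *Prdm14*, a PR domain protein that represses FGF signaling and DNA methyltransferases (ENSMUSG00000042414, - strand of chromosome 1, 13113457 to 13127163), had 21.5, 22.9 and 34.0 CPM in wild-type against 25.5, 24.4 and 37 in S138A libraries. It was higher in S138A than in the wild-type library with the same digit in all 3 pairs, but the genotypes overlapped and the log2 fold change of 0.15 (SE 0.24) had an adjusted p of 0.82 from edgeR and 0.213 with the block. As the least abundant factor, *Prdm14* still had 710 counts in its lowest library (95% Poisson interval 658.7 to 764.2, for counting error only).

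Between libraries of the same genotype the factors differed in opposite directions. In wild-type 3 and S138A C, 3 factors (*Klf4*, *Prdm14* and *Esrrb*) were above both other libraries of their genotype, 6 (*Klf5*, *Nr5a2*, *Nr0b1*, *Tfcp2l1*, *Tbx3* and *Zfp42*) were below both, and *Klf2* was mixed. Over all tested genes 34.0% were above and 33.8% below in the same sense. *Prdm14* was 1.53-fold higher in wild-type 3 and 1.48-fold higher in S138A C, and *Klf4* was 1.19-fold and 1.46-fold higher. The difference of *Esrrb* was 0.05 and 0.02 on the log2 scale. The size of the log2 difference was over 0.5 for 2 factors in wild-type 3 and for 5 in S138A C, beside 32.3% and 39.8% of all genes. These libraries were set apart by their expression over all genes and not by a label, so the differences are given without a test.

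**Figure D4:**
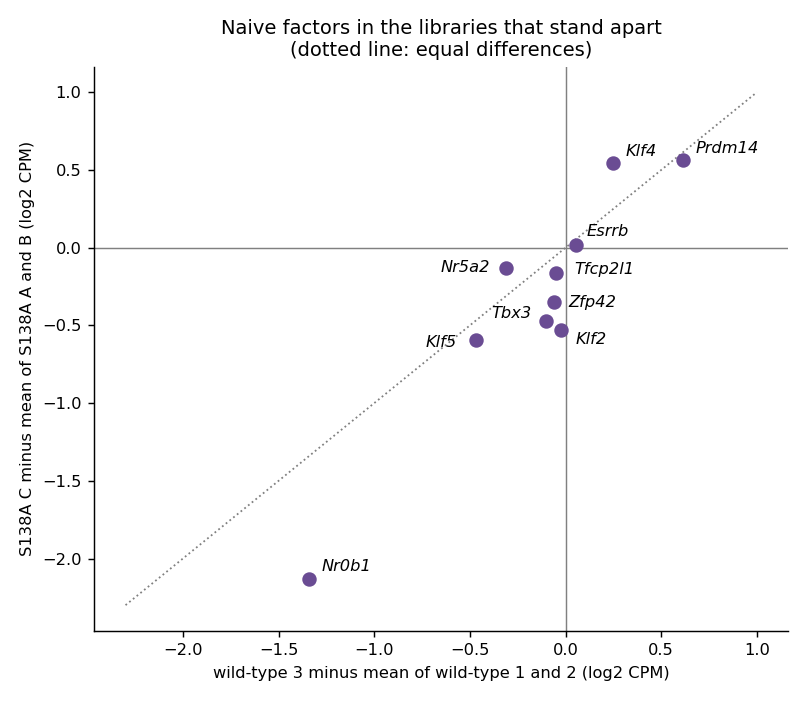
Log2 difference of wild-type 3 from the mean of wild-type 1 and 2 (horizontal) and of S138A C from the mean of S138A A and B (vertical) for each factor, with a dotted line at equal differences. *Nr0b1* lies at -1.34 and -2.13, *Prdm14* at 0.61 and 0.57, and *Esrrb* near 0 on both axes.

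For each factor the tested gene with the closest profile over the 6 libraries was found among all others with a mean of at least 10 CPM (root mean square distance of centred log2 CPM). For *Nr0b1* this was *Foxd3*, a forkhead factor of ESCs and neural crest, at a distance of 0.0921 against a spread of 0.848 for *Nr0b1* itself. *Foxd3* had 39.6, 44.4 and 18.9 CPM in wild-type against 43.6, 46.4 and 10.0 in S138A libraries. For *Tbx3* it was *Zmiz1* (0.0743), with 28.5, 30.3 and 27.6 CPM in wild-type against 53.2, 54.2 and 42.6 in S138A libraries. For *Klf5* it was *Itga3* (0.0190), for *Prdm14* *Tspan4* (0.0290) and for *Klf4* *Hectd2* (0.0512). Among the factors themselves the closest pair was *Esrrb* and *Tfcp2l1* (0.0851), both nearly level, and *Nr0b1* was the farthest from any other, at 0.645 from *Klf5*.

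Of the core factors, 0 of 4 passed in edgeR with genotype alone, and their median log2 fold change was -0.04. *Pou5f1* had 1363, 1429 and 1018 CPM in wild-type against 1416, 1427 and 954 in S138A libraries, and *Nanog* had 616.3, 613.5 and 937.5 against 602.7, 601.8 and 774.6. *Nanog*, like *Klf4* and *Prdm14*, was highest in wild-type 3 and S138A C, and *Pou5f1* was lowest there. *Sall4* (357.9, 372.7 and 219.2 against 451.9, 433.2 and 242.4 CPM) was the one core factor that passed with the block, with an adjusted p of 0.0481 from edgeR. With the block 1 core factor was thus higher and 0 were lower, beside 10.7% and 9.13% of all genes.

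Among 12 other genes of the naive state, 0 passed in edgeR with genotype alone, and 1 was higher and 2 were lower with the block, beside 10.7% and 9.13% of all genes. DESeq2 with genotype alone called the same 2 lower and 0 higher, beside 2.33% and 2.62% of all genes. These were *Dppa3* (DESeq2 adjusted p = 2.12e-16) and *Spic* (0.0196). *Dppa3*, a maternal factor that protects methylation marks, had 19.5, 18.3 and 29.7 CPM in wild-type against 2.81, 2.31 and 4.21 in S138A libraries, a log2 fold change of -2.85 (SE 0.30, edgeR adjusted p = 0.0789, and 0.000231 with the block). *Spic*, an ETS factor of the most naive cultures, had 1.76, 1.17 and 1.44 CPM against 0.637, 0.544 and 0.566, with an adjusted p of 0.0148 from edgeR with the block. *Jam2* was the gene that was higher (log2 fold change 0.26, adjusted p = 0.0418 with the block). The median log2 fold change of the 12 was -0.17.

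The genes that feed the network were read from lists of the same kind. Of 9 genes of the LIF and STAT3 input, 0 passed in edgeR with genotype alone, and 2 were higher and 0 lower with the block, beside 10.7% and 9.13% of all genes, with a median log2 fold change of 0.15. These were *Junb*, an immediate early target (35.5, 35.6 and 34.5 CPM in wild-type against 47.1, 53.9 and 68.4 in S138A libraries, edgeR adjusted p = 0.0125), and *Pim1*, a kinase gene induced by STAT3 (94.0, 112.7 and 160.4 against 154.4, 144.9 and 217.2, adjusted p = 0.0121). DESeq2 called *Junb* as well (adjusted p = 0.00662). *Stat3* had an adjusted p of 0.771 from edgeR on a log2 fold change of 0.11. The genotypes did not overlap for 2 genes that were higher, *Junb* and *Bcl3*, and for 1 that was lower, *Il6st* (11.3% and 10.9% of all genes). The receptor subunit gene *Il6st* had 116.2, 117.3 and 113.1 against 93.1, 94.1 and 105.1 CPM, with an adjusted p of 0.307 from edgeR and 0.0536 with the block. *Bcl3* had 35.1, 36.9 and 33.9 against 40.7, 44.9 and 38.9 CPM, with an adjusted p of 0.372 from edgeR and 0.0636 with the block.

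Of 14 genes of the FGF and ERK input, 0 passed in edgeR with genotype alone, and 5 were higher and 1 lower with the block, beside 10.7% and 9.13% of all genes, with a median of 0.16. The receptor gene *Fgfr1* was higher (log2 fold change 0.45, adjusted p = 0.00938 with the block and 0.000655 in DESeq2 with genotype alone), as were the feedback inhibitors *Spry4* (186.6, 194.3 and 101.4 CPM in wild-type against 286.9, 289.7 and 140.0 in S138A libraries, adjusted p = 0.00592 with the block) and *Spry2* (adjusted p = 0.0161). *Etv5*, an ETS target gene of the same pathway, was the one that was lower (605.7, 610.8 and 516.6 against 489.3, 475.1 and 323.6, adjusted p = 0.0157 with the block). Of 9 genes of the Wnt, GSK3 and TCF input, *Axin2* was higher and *Tcf7* lower with the block (adjusted p = 0.03 and 0.0198), and 0 passed with genotype alone in edgeR or DESeq2 (median -0.06). Of 10 cofactor and exit genes, *Zfp706* and *Rbpj* were lower with the block (adjusted p = 0.037 and 0.0457) and 0 were higher (median -0.08), and DESeq2 called *Zfp706* (adjusted p = 0.0273). Over all genes tested the median was 0.02.

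The formative and primed genes, which take over as the naive factors are lost, had a median log2 fold change of -0.14 over the 11 of 12 that were tested. With the block 3 were higher (*Zic2*, *Sox3* and *Sall2*) and 4 lower (*Grhl2*, *Cdh2*, *Otx2* and *Dnmt3b*), beside 10.7% and 9.13% of all genes. With genotype alone 0 passed in edgeR, and DESeq2 called *Zic2* higher (adjusted p = 0.0441). *Otx2* had 38.8, 46.3 and 25.1 CPM in wild-type against 33.1, 32.7 and 14.7 in S138A libraries, with an adjusted p of 0.0238 from edgeR with the block. Of the 11, 9 were below and 2 above both other libraries of their genotype in wild-type 3 and also in S138A C. Over all genes tested these shares were 33.8% and 34.0%. The median log2 differences of the list in wild-type 3 and S138A C were -0.69 and -0.88. The same medians over the 10 naive factors were -0.06 and -0.25, and over all genes 0.00 and 0.00.

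**Figure D5:**
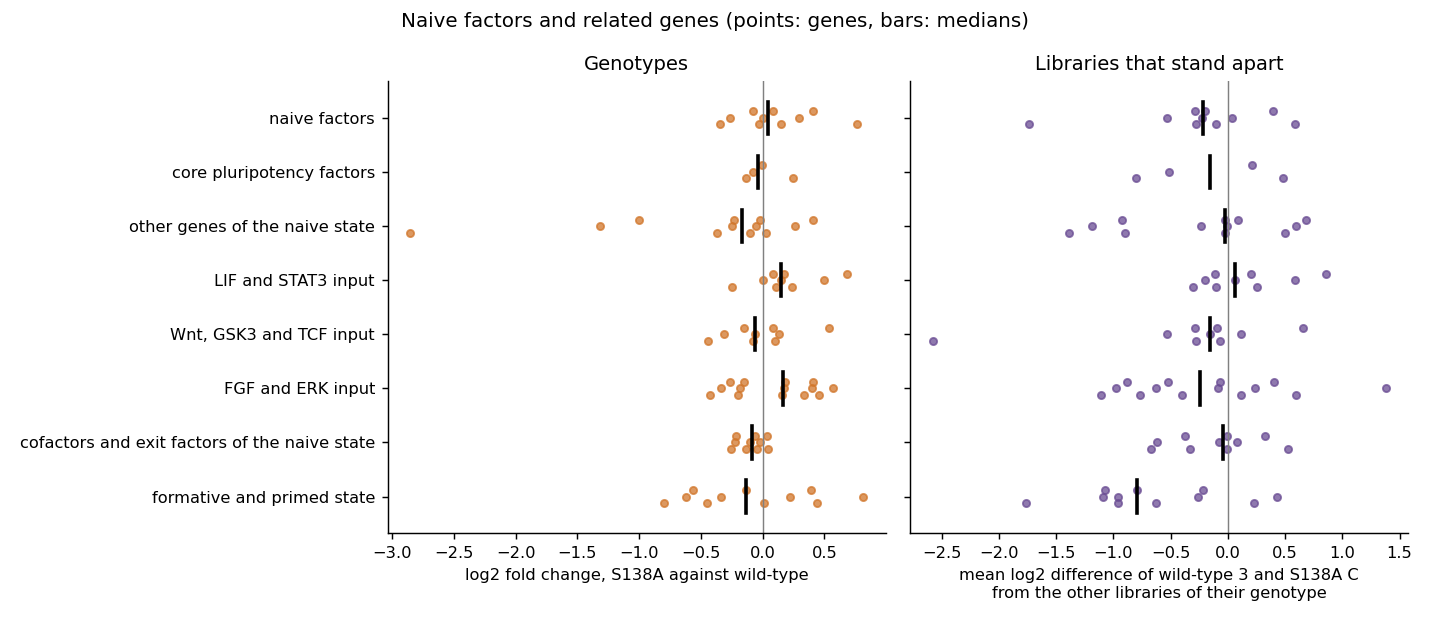
Log2 fold change of S138A against wild-type (left) and mean log2 difference of the libraries that stand apart from the rest of their genotype (right) for the naive factors and 7 lists of related genes, with 1 point per tested gene and a black bar at the median. On the left *Dppa3* lies alone at -2.85, and on the right the formative and primed genes sit mostly below 0.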

How the data were processed

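The deposited table held 3 wild-type and 3 S138A libraries of E14 ESC polyA RNA, made from 500 ng of RNA with a stranded kit. Per the labels, the authors used CASAVA 1.8.4, TopHat2 2.0.11, the mm9 (NCBIM37) build and featureCounts, whose settings are not given in the sources used here, and the deposited values are raw counts per gene. The paper describes these cells but not the RNA-seq. All columns were used, with S138A columns assigned to the genotype as a group. ERCC rows numbered 0. Symbols were matched by identifier for 32897 genes (87.4%). Coordinates and lengths are from GENCODE M21 (GRCm38), another build than that of the counts.

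Counts were filtered with filterByExpr (minimum count 10, total 15), scaled by TMM and tested with edgeR 4.0.16 in R 4.3.3, with Benjamini-Hochberg adjustment over 16023 genes. Alternatives used limma 3.58.1 and DESeq2 1.42.0. Figures were drawn with Python 3.11.15. Log2 CPM used a prior count of 2. Standard errors were derived from the log2 fold change and the F statistic. The pipeline was tested on simulated data. Deviations from the group mean correlated at 0.53, 0.493 and 0.753 in the pairs with equal digits. Crossing 1 and 2 gave 0.515 and 0.526, so the correlations do not tell these pairs apart. The digits were taken to pair the libraries on the column names alone. The members, lists and tests were chosen with earlier results of these data known. The rule for named genes took all members, up to 4 genes of each list by p-value, the core factors and the closest profile to each member. Other list genes, such as *Stat3*, *Cdh2* and *Tfap2c*, were named after their values were seen, and not every gene the rule gives is reported.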

Additional observations from a re-analysis of the deposited data

How the results depend on the processing

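With genotype alone edgeR called 0 naive factors, and the count of factors called higher in S138A was 1 with DESeq2 and 3 each with the replicate block, with the term for wild-type 3 and S138A C and with the 4 other libraries alone. Those called lower were 2 with the replicate block, 2 with the term and 1 with the 4 libraries. With 1 library left out the range was 0 to 1 higher and 0 lower, with *Tbx3* called without S138A C. Of 133 tested genes of the lists, 13 were called higher and 4 lower with DESeq2 (2.62% and 2.33% of all genes), 32 and 12 with the replicate block (10.7% and 9.13%), 35 and 19 with the term (14.6% and 13%), and 43 and 23 with the 4 libraries (15.3% and 14.3%). With 1 library left out the ranges were 0 to 7 and 0 to 1, with 7 and 1 without S138A C. RLE and upper-quartile factors, the other filters, limma-voom and both stricter thresholds called 0 factors.

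The sign of 4 factors turned in some settings. *Klf2* was 0.12 without S138A C and 0.11 with the 4 libraries. *Esrrb* was 0.026 with upper-quartile factors, 0.0067 with the 1 CPM filter, 0.015 without wild-type 3, 0.0085 without S138A A and 0.0095 with the 4 libraries. *Prdm14* was -0.07 without S138A C. *Nr0b1* was 0.12 without wild-type 1, 0.09 without wild-type 2, 0.34 without S138A C and 0.02 with the 4 libraries. With 1 library left out, the log2 fold change ranged from -0.147 to 0.12 for *Klf2*, -0.0236 to 0.0153 for *Esrrb*, -0.0698 to 0.381 for *Prdm14* and -0.424 to 0.345 for *Nr0b1*. Beside those given, the replicate block changed no call of a factor. Of 150 alternative values, 12 turned sign and 16 newly passed. The cause was not tested. Each factor had 710 or more counts in each library.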

Other observations

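Among the markers of other lineages, primitive endoderm genes had overlapping sums, with 584.9 to 651.0 CPM in wild-type against 618.7 to 687.3 in S138A libraries over 12 genes. In edgeR 0 passed with genotype alone, and with the replicate block 2 were higher and 1 lower (background 10.7% and 9.13% of all genes). DESeq2 with genotype alone called 1 higher and 1 lower, beside 2.62% and 2.33% of all genes. *Lama1*, a laminin chain of basement membrane, was lower in each S138A library (76.2, 79.9 and 73.2 against 56.8, 54.7 and 58.6 CPM, adjusted p = 0.0128 with the block). The collagen chain genes *Col4a2* (36.3, 39.3 and 34.8 against 64.7, 66.0 and 46.5) and *Col4a1* were the ones that were higher. Most of the sum came from *Sparc*, *Lamb1* and these laminin and collagen chain genes. The other members were low and did not pass with the block. Their means in wild-type against S138A were 2.07 against 1.61 CPM for *Gata6*, 2.68 against 3.00 for *Gata4* and 2.08 against 2.32 for *Pdgfra*. For *Sox17* they were 0.60 against 0.59, and for *Foxa2* 0.31 against 0.24. For *Sox7* they were 3.63 against 4.07, and for *Dab2* 8.82 against 11.5.

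Of 10 trophoblast genes, 9 were tested, on a median log2 fold change of 0.59. Their summed level was 508.6 to 563.7 CPM in wild-type against 442.6 to 823 in S138A libraries. The sum in S138A C was 442.6 CPM, below all wild-type libraries. In edgeR 0 passed with genotype alone, and 3 were higher and 1 lower with the block (10.7% and 9.13% of all genes). DESeq2 with genotype alone called 2 higher and 0 lower, beside 2.62% and 2.33% of all genes. *Krt7*, a keratin of simple epithelia, had 8.35, 7.50 and 7.47 CPM in wild-type against 17.5, 19.5 and 13.4 in S138A libraries (adjusted p = 0.00582 with the block). *Cdx2* (0.18, 0.38 and 0.18 against 1.39, 1.93 and 0.43 CPM, edgeR adjusted p = 0.0113 with the block) was also higher. So was *Gata3* (2.09, 1.58 and 2.02 against 3.01, 2.66 and 2.99, adjusted p = 0.0468 with the block). *Tfap2c* was lower (39.4, 39.8 and 72.2 against 34.6, 33.8 and 55.9, adjusted p = 0.0455 with the block) and, like *Klf4* and *Prdm14*, was highest in wild-type 3 and S138A C. Most of the sum came from *Krt8* and *Krt18*, which did not pass with the block and were lower in S138A C than in any wild-type library. *Krt8* had 245.6, 240 and 198.1 CPM in wild-type against 364.5, 396.6 and 162.1 in S138A libraries. *Krt18* had 227.6, 221.6 and 195.3 against 309.4, 324.8 and 174.3. *Hand1*, *Plac1* and *Tead4* did not pass with the block either, and *Elf5* had 1 to 7 counts.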
